A study of Mus musculus with 10 samples.

Results

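Genes that mark B lymphocytes were followed in whole liver RNA from 5 mice lacking nucleomethylin (NML-KO) and 5 wild-type (WT) mice, all 12 weeks old. The set holds 9 genes, Cd79a, Cd79b, Ms4a1, Blk, Cd22, Cr2, Pax5, Bank1 and Fcrla, taken by name from the 19935 genes that the arrays measured with a probe set naming a single gene. Each of the 9 genes was read by 1 probe set. Each liver was hybridised to 1 whole-transcript array, and values are given as log2 of the deposited intensity. Rrp8 encodes nucleomethylin, a protein of the nucleolus known for its part in shutting off ribosomal DNA repeats, and the study set its absence against the wild type in liver. The labels give no strain, sex, allele or Cre driver, and nothing on litters, so p-values measure the spread between these 10 livers.

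B cells carry a receptor made of a membrane antibody and a pair of signalling chains, CD79A and CD79B, whose tails are phosphorylated by Src-family kinases when antigen binds. Surface proteins such as CD22 and complement receptor 2 damp or lower the threshold of that signal, and the transcription factor PAX5 holds the cells to the B lineage. The liver contains some resident and circulating B cells among a large majority of hepatocytes, so that their transcripts are diluted in RNA of the whole organ. In bulk samples, fewer B cells and less RNA per B cell cannot be told apart.

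The arrays had median intensities from 62.5 to 66.7. The normalization of the deposited values is not stated, so this range alone does not show that the arrays are comparable. Rrp8 itself averaged 6.87 ± 0.22 in NML-KO livers and 7.75 ± 0.11 in WT livers (SD, n = 5 each). In NML-KO livers it ran from 6.65 to 7.19, above the dim range described below, so these values alone do not show its absence. No gene of the 19935 passed an adjusted p of 0.05 in limma (0.0%). The 9 hepatocyte markers measured lay above the dim range on every array, with a mean log2 level from 13.7 to 13.8 in NML-KO livers and likewise in WT livers. The livers also fell into 2 array sets that cut across genotype and differ in the clock output gene Dbp: NML-KO 1 to 3 with WT 1 and WT 2 in the first, and NML-KO 4 and 5 with WT 3 to 5 in the second. The labels name no batch or time of day for these sets, so the differences of the 9 genes and the list medians are also given within them.

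Cd79a and Bank1 are taken up first because they had the highest correlation over the 10 livers among the pairs formed with Cd79a, as shown further on. No pair passed adjustment, and Cd79b led Bank1 when WT 2 and WT 5 were left out. The promoters of Cd79a and Bank1 are printed so that the regions in front of these genes can be compared. They run from 250 bases before to 50 bases after the transcription start in RefSeq's mouse table (GRCm38.p6), at chr7:24897247-24897546 on the plus strand for Cd79a and at chr3:136326017-136326316 on the minus strand for Bank1. Capitals mark each match of CANNTG, which reads the same on both strands, the E-box letters bound by E proteins such as E2A, a factor needed for B cell development.
Cd79a: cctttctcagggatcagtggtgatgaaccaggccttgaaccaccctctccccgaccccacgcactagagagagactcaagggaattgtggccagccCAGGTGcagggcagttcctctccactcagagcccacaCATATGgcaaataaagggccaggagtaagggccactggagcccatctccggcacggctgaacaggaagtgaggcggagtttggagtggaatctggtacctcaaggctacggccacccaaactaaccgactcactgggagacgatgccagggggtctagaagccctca
Bank1: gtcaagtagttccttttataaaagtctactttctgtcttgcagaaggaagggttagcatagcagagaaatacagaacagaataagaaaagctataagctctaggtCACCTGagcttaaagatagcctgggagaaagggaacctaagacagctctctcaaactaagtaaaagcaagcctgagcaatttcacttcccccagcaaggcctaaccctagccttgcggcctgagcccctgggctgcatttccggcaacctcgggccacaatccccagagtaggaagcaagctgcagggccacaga

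Cd79a had 2 E-box matches in this window and Bank1 had 1, letters that 72.3% of the 32851 promoters in the table hold. Each of them also held 1 match, on either strand, of GGAAGTG, a form of the ETS-factor core, which 11.0% of all promoters hold. CCCNNGGG is a palindrome read by the B lineage factor EBF1. Its exact letters occurred 1 time in Bank1, 0 times in the Cd79a window and in 13.7% of all promoters. Sites that differ from these letters were not searched, so the count does not show whether EBF1 has a site in either window. The table held promoters for 6 of the 9 genes. Among the other 4, Cd22 had 2 E-box matches, Cr2 had 3, Fcrla had 4 and Pax5 had 1.

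To see which of the 9 genes gave signal at all, each value was set against the dim range of its own array, the log2 level below which 95% of 1027 olfactory receptor genes lay. Olfactory receptors are not known for a role in adult liver and stand here for the low end of an array whose background treatment the sources used here do not state. The upper edge of this range lay between 5.33 and 5.61 in NML-KO livers and between 5.36 and 5.46 in WT livers. Cd79b, Bank1, Cd22 and Pax5 lay above it on all 10 arrays, Blk on 5 and Fcrla on 3, while Cd79a, Ms4a1 and Cr2 lay within it on all arrays. Over all genes, 61.3% lay above the range on every array and 27.5% on none. The margin was small even for the genes above it, at most 1.51 for Bank1, 1.16 for Cd79b, 0.83 for Cd22 and 0.40 for Pax5 on the log2 scale. Against a stricter edge, the 99th percentile of the olfactory genes, no member lay above on all arrays, although Bank1 still did on 9 and Cd79b on 8. Against the 95th percentile of vomeronasal receptor genes, 6 of the 9 genes lay above on all arrays and 2 on none, with Cd79a above on 4. The share of all genes was not counted for these other edges.

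**Figure D1:**
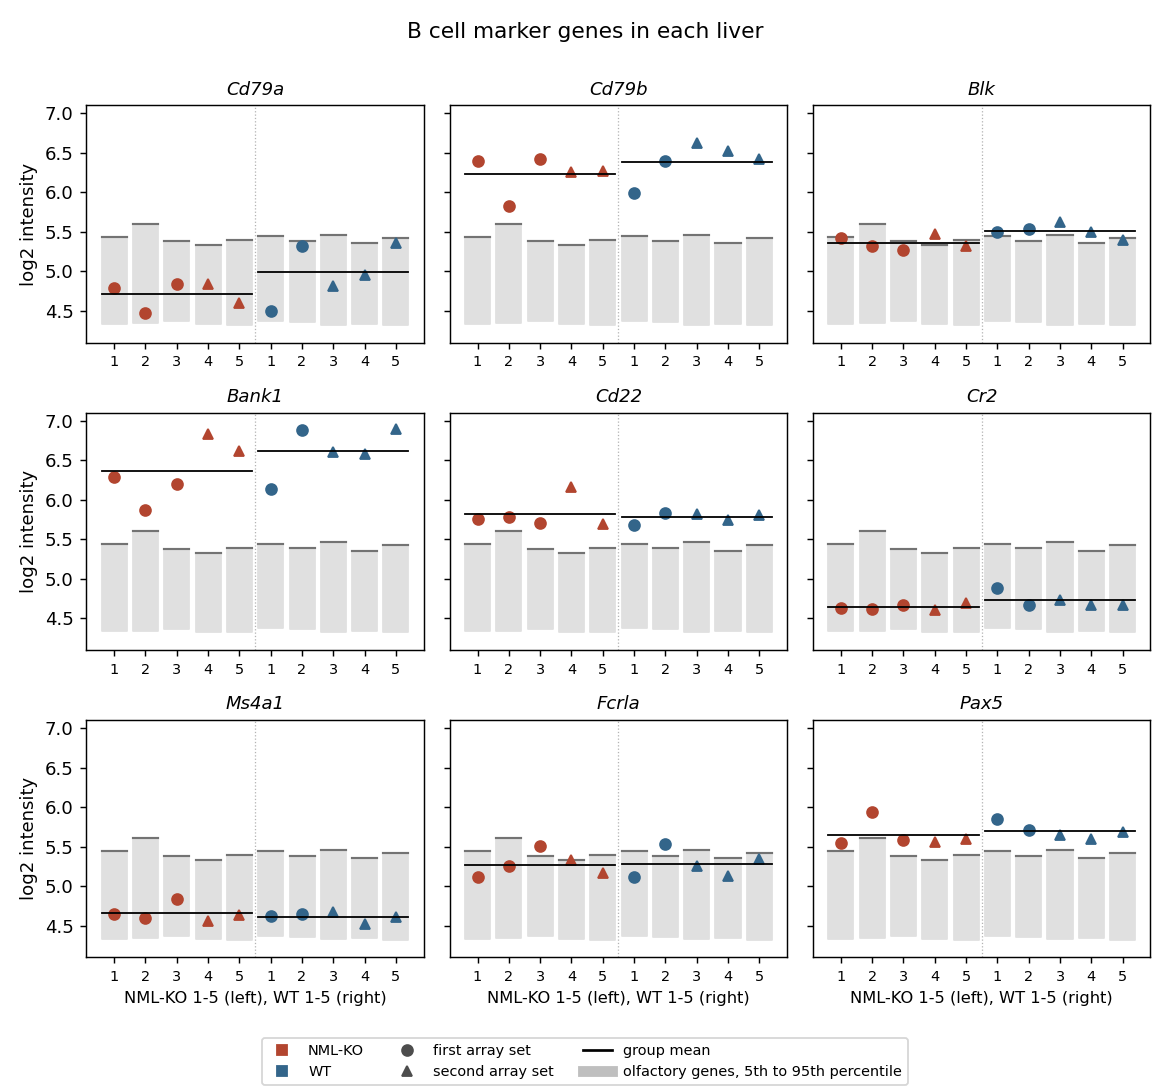
Log2 intensity (vertical axis) of each of the 9 B cell marker genes in NML-KO 1 to 5 and WT 1 to 5 (horizontal axis), with circles for the first array set, triangles for the second, black lines for group means and grey bars for the 5th to 95th percentile of 1027 olfactory receptor genes on the same array. Cd79b, Bank1, Cd22 and Pax5 stand above the bars in all 10 livers, whereas Cd79a, Ms4a1 and Cr2 lie inside them in all 10.

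None of the 9 genes passed limma's test between NML-KO and WT livers, each with an adjusted p of 0.9995 (Benjamini-Hochberg over all genes). Of the 9, 7 had lower means in NML-KO livers and 2 had higher means, with a median log2 difference of -0.083, against -0.0065 over all genes, of which 53.4% were lower. Blk alone had an unadjusted p below 0.05, where 2.7% of all genes did and 1.66% did with a lower mean in NML-KO livers. The groups did not overlap for 0 of the 9 genes and for 0.406% of all genes. The widest intervals reached well below 0, so the arrays limit the statement to differences of the size the intervals hold.

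The receptor's signalling chains come first. Cd79a, which encodes the alpha chain, had values of 4.79, 4.47, 4.84, 4.84 and 4.60 in NML-KO 1 to 5, against 4.50, 5.32, 4.82, 4.96 and 5.36 in WT 1 to 5. WT 2 and WT 5 stood above every other liver, while WT 1 lay among the lowest, so the groups overlapped. The means were 4.71 ± 0.17 in NML-KO livers and 4.99 ± 0.36 in WT livers (SD, n = 5 each), a log2 difference of -0.28 (95% interval from limma, -0.64 to 0.076, unadjusted p = 0.110 by limma). A two-sided exact permutation over all assignments of livers gave p = 0.151. Within the array sets the difference was -0.20 (the first) and -0.33 (the second). All 5 NML-KO livers were below the WT mean of all arrays, but so were WT 1, WT 3 and WT 4. The difference was -0.40 without WT 1, with an unadjusted limma p below 0.05 that did not pass the adjustment, and -0.19 without WT 5. Every one of these values lies within the dim range, where any remaining background would shrink a true difference.

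Cd79b, which encodes the beta chain, had 6.40, 5.83, 6.42, 6.26 and 6.27 in NML-KO 1 to 5, against 5.99, 6.40, 6.62, 6.52 and 6.43 in WT 1 to 5. NML-KO 2 and WT 1 were the low livers of their groups, and the remaining 8 lay close together. The means were 6.23 ± 0.24 in NML-KO livers and 6.39 ± 0.24 in WT livers (SD, n = 5 each), and the log2 difference of -0.16 (SE 0.14) was smaller than either SD. Within the first array set it was 0.021, and within the second -0.26. Leaving out NML-KO 2 gave -0.056, and leaving out WT 1 gave -0.26. Whether the array sets differ in this was not tested.

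Of the signalling proteins, Blk encodes a Src-family kinase of B cells. It had 5.43, 5.32, 5.27, 5.47 and 5.32 in NML-KO 1 to 5, against 5.50, 5.54, 5.63, 5.50 and 5.40 in WT 1 to 5. All 5 NML-KO livers were below the WT mean, but so were WT 1, WT 4 and WT 5, and NML-KO 1 and NML-KO 4 lay above WT 5. The difference was -0.15 (SE 0.059, 1.11-fold lower), with an exact permutation p of 0.0238 and an unadjusted limma p of 0.0256, which ranked 239th of the 19935 genes and did not pass the adjustment. Within the array sets it was -0.18 (the first) and -0.11 (the second). Blk lay above the dim range in 1 NML-KO liver and 4 WT livers, and only by up to 0.16, so its levels sit at the edge of what the arrays separate from dim genes.

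Bank1 encodes a scaffold that links the B cell receptor to Src-family kinases and calcium release. It had 6.29, 5.88, 6.20, 6.84 and 6.61 in NML-KO 1 to 5, against 6.13, 6.89, 6.61, 6.58 and 6.89 in WT 1 to 5. Its spread of 1.02 over all livers exceeded that of each other member, with NML-KO 2 lowest and WT 5 highest. The means were 6.36 ± 0.37 in NML-KO livers and 6.62 ± 0.31 in WT livers (SD, n = 5 each), a log2 difference of -0.26 (SE 0.19) that was smaller than the spread within either genotype. Its mean over livers was 6.28 within the first array set and 6.71 within the second, although WT 2 of the first set was among the highest livers. The genotype difference was -0.39 within the first and 0.027 within the second. Leaving out NML-KO 4 gave -0.38, and leaving out NML-KO 2 gave -0.14.

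**Figure D2:**
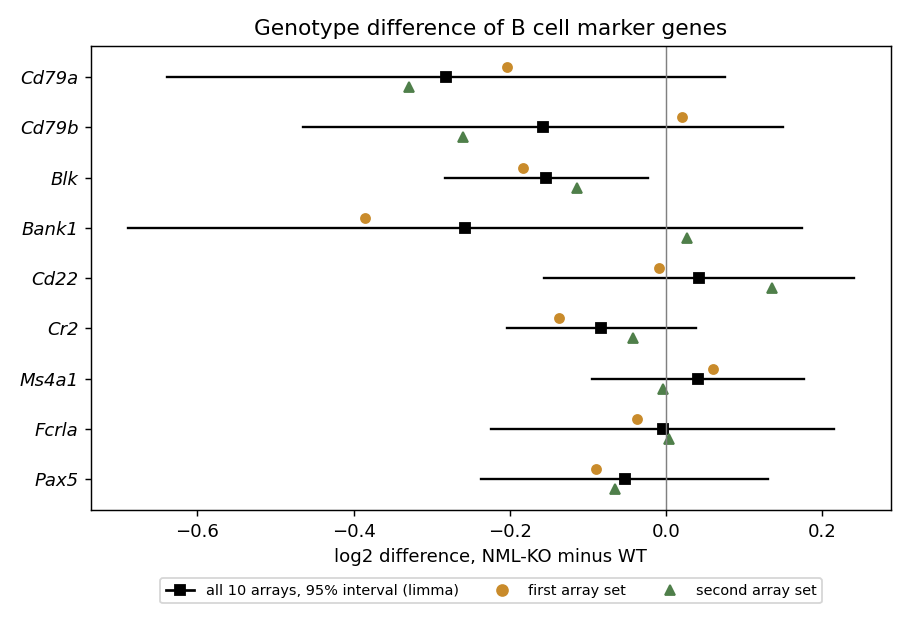
Log2 difference NML-KO minus WT (horizontal axis) for each B cell marker gene (vertical axis), with black squares and lines for all 10 arrays and limma's 95% interval, and coloured points for the difference within each array set. The interval of Blk ends at -0.023, below 0, and the intervals of the other 8 genes include 0.

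Among the coreceptors, Cd22 encodes an inhibitory lectin that binds sialic acid. It had 5.75, 5.78, 5.70, 6.16 and 5.69 in NML-KO 1 to 5, against 5.68, 5.83, 5.82, 5.75 and 5.80 in WT 1 to 5. NML-KO 4 stood alone above the other 9 livers, which lay within a narrow band. The difference of 0.042 (SE 0.090) turned to -0.044 without NML-KO 4. Within the array sets it was -0.0086 (the first) and 0.14 (the second).

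Cr2 encodes the receptor for complement C3d fragments, carried in mice by B cells and follicular dendritic cells. It had 4.63, 4.61, 4.67, 4.60 and 4.70 in NML-KO 1 to 5, against 4.89, 4.66, 4.74, 4.67 and 4.67 in WT 1 to 5. WT 1 was the highest liver, the remaining values spanned about the same low band, and the difference was -0.083 (SE 0.055, exact permutation p = 0.0714), or -0.042 without WT 1. Within the array sets it was -0.14 (the first) and -0.042 (the second). All 10 values lay at least 0.56 below the upper edge of the dim range.

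Ms4a1 encodes CD20, the surface protein by which mature B cells are commonly recognised. It had 4.65, 4.59, 4.84, 4.56 and 4.63 in NML-KO 1 to 5, against 4.62, 4.65, 4.67, 4.52 and 4.61 in WT 1 to 5. NML-KO 3 was the highest liver and the others overlapped, with a difference of 0.041 (SE 0.061) that was -0.0063 without NML-KO 3. It was 0.060 within the first array set and -0.0046 within the second. These values lay between the 7.14th and the 17.6th percentile of all genes of their arrays, and like those of Cr2 they were no higher than the dim range of vomeronasal receptor genes on any array. With this probe set, a defining surface marker of B cells was therefore not distinguishable from dim genes in any liver.

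Fcrla encodes an Fc receptor-like protein that stays inside B cells. It had 5.11, 5.25, 5.51, 5.34 and 5.16 in NML-KO 1 to 5, against 5.12, 5.54, 5.26, 5.13 and 5.35 in WT 1 to 5. The groups spanned nearly the same range, from 5.11 to 5.51 in NML-KO livers and from 5.12 to 5.54 in WT livers. The difference was -0.0045 (SE 0.099), and it turned positive when NML-KO 1, 2 or 5 or WT 2 or 5 was left out. It was -0.038 within the first array set and 0.0039 within the second.

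Pax5 encodes the transcription factor of the B lineage. It had 5.55, 5.93, 5.58, 5.56 and 5.59 in NML-KO 1 to 5, against 5.84, 5.71, 5.64, 5.59 and 5.69 in WT 1 to 5. NML-KO 2 was the highest liver and WT 1 came next, the same livers in which Cd79b and Bank1 were lowest. The difference was -0.053 (SE 0.083), or -0.13 without NML-KO 2 and -0.017 without WT 1. Within the first array set it was -0.090, and within the second -0.066.

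Whether the members varied together across livers was described through Cd79a, paired with each of the other 8 genes over the 10 livers. Cd79a, Ms4a1 and Cr2 lay within the dim range on all arrays, and Blk and Fcrla lay above it on only 5 and 3. A low r in pairs of such genes therefore cannot show whether B cell transcripts varied together. Bank1 went with Cd79a most closely (Pearson r = 0.77, permutation p = 0.00959, adjusted p = 0.0767 over the 8 pairs; Spearman rho = 0.72, permutation p = 0.0236, adjusted p = 0.123). Cd79b had r = 0.63 (permutation p = 0.0462, adjusted p = 0.185) and rho = 0.70 (permutation p = 0.0309, adjusted p = 0.123). None of the 8 pairs passed after adjustment.

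Leaving out WT 2 and WT 5, the livers farthest from the median of Cd79a, gave r = 0.62 with Bank1 and r = 0.87 with Cd79b over 8 livers. With values centred within each array set, r was 0.84 with Bank1 and 0.61 with Cd79b, and centred within genotype 0.72 and 0.57. Fcrla had r = 0.57 with Cd79a, which dropped to 0.26 without those livers. Blk, Cd22 and Ms4a1 had r of 0.27, 0.24 and 0.0024 with Cd79a, and Cr2 and Pax5 had -0.30 and -0.32. These values moved with the livers and the centring: r with Pax5 was -0.81 without WT 2 and WT 5, and r with Cr2 was -0.76 centred within genotype. Among the 4 genes above the dim range on all arrays, Pax5 and Cd79b had r = -0.76 over the 10 livers, given as a description. The other pairs ran from -0.51 for Pax5 with Bank1 to 0.63 for Cd79b with Bank1. The r of -0.76 includes NML-KO 2 and WT 1, the lowest livers for Cd79b and the highest for Pax5, and was not computed without them.

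**Figure D3:**
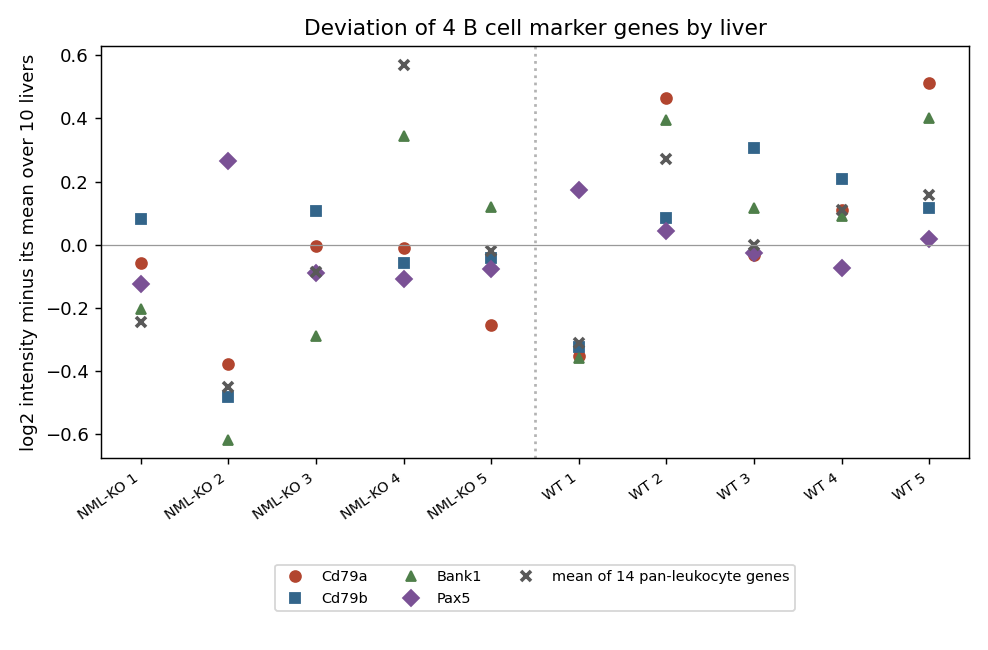
Log2 intensity minus the gene's own mean over 10 livers (vertical axis) in each liver (horizontal axis) for Cd79a, Cd79b, Bank1 and Pax5, with crosses for the mean of 14 pan-leukocyte genes. Cd79a, Cd79b, Bank1 and the crosses lie lowest or next to lowest in NML-KO 2 and WT 1, where Pax5 lies highest.

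Pan-leukocyte genes and macrophage markers were also lowest in NML-KO 2 and WT 1. The mean over 14 genes shared by white blood cells, among them Ptprc (CD45) and Laptm5, was 6.39, 6.19, 6.55, 7.21 and 6.62 in NML-KO 1 to 5, against 6.33, 6.91, 6.64, 6.75 and 6.80 in WT 1 to 5. NML-KO 2 and WT 1 were lowest, and NML-KO 4 and WT 2 highest. The mean over 14 Kupffer cell and macrophage markers, of which all 14 lay above the dim range on all arrays, ran from 7.47 in NML-KO 2 to 8.89 in NML-KO 4 among NML-KO livers, and from 7.51 to 8.49 in WT livers. The 16 measured genes of B cell receptor signalling were also lowest there, at 7.12 in NML-KO 2 and 7.15 in WT 1. So were the hepatocyte markers, by a narrow margin, at 13.71 and 13.72. Other B lineage genes were lowest in WT 1 (5.76), with NML-KO 1 (5.85) below NML-KO 2 (5.87). T cell markers, with mean levels of 5.65 in NML-KO 2 and 5.60 in WT 1, and neutrophil markers, with 5.14 and 5.12, were not low in NML-KO 2 and WT 1. The part of the pan-leukocyte and macrophage genes in the levels of Cd79a, Cd79b and Bank1 was not tested. The median of the olfactory receptor genes was highest in WT 1 (4.60) and NML-KO 2 (4.59), and ran from 4.52 to 4.58 in the other livers. NML-KO 2 also had the highest upper edge of the dim range (5.61), whereas that of WT 1 was 5.45. Whether this bears on the lists low in these livers, or on the high Pax5, was not tested.

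The genes outside the set with the pattern most like the mean of Cd79b, Bank1, Cd22 and Pax5, each scaled to its own mean and SD, were led by Amdhd1 (r = 0.94), an enzyme of histidine breakdown. Others were the lysosomal gene Ctsa (r = 0.92), Esyt1 (r = 0.92), which tethers membranes, Man2b2 (r = 0.91), a mannosidase gene, and Shoc2 (r = 0.91), a scaffold of RAS signalling. These are among the 6 highest values of 19926 genes over 10 livers and are a description only. The 4 genes in that mean did not vary alike, with r between pairs from -0.76 to 0.63, so the mean stands for no pattern shared by them.

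Of 36 other genes of the B lineage, 30 were measured. Of the 30, 11 were higher and 19 lower in NML-KO livers, 0 passed an adjusted or an unadjusted p of 0.05 in limma, and the median log2 difference was -0.020 (-0.015 within the first array set, -0.0081 within the second). On all arrays 17 lay above the dim range, where 61.3% of all genes did. The members with the smallest p were Bach2, a repressor of plasma cell fate, at 7.18 ± 0.27 in NML-KO livers and 7.47 ± 0.33 in WT livers (SD, n = 5 each), and Ebf1, a B lineage transcription factor, at 5.31 ± 0.064 in NML-KO livers and 5.57 ± 0.37 in WT livers (SD, n = 5 each).

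Ebf1 stood at 6.21 in WT 2 and between 5.32 and 5.61 in the other WT livers. Ly86 and Cd180, partners that form a receptor complex on B cells and also on myeloid cells, had the highest levels in the list. Ly86 lay between 6.74 and 9.26 in NML-KO livers and between 6.60 and 8.73 in WT livers, lowest in WT 1 and NML-KO 2 and highest in NML-KO 4. The macrophage markers were lowest and highest in the same livers.

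The list of 18 further genes of B cell receptor signalling had 16 measured, 5 higher and 11 lower in NML-KO livers, with a median log2 difference of -0.080 and 0 past an unadjusted p of 0.05. That median was -0.15 within the first array set and 0.041 within the second, and it ran from -0.12 to -0.020 with 1 array left out. Malt1, a protease that carries the receptor's signal to NF-kappaB, averaged 6.19 ± 0.16 in NML-KO livers and 6.34 ± 0.19 in WT livers (SD, n = 5 each). Vav1, an exchange factor of blood cells, averaged 6.13 ± 0.32 in NML-KO livers and 6.33 ± 0.25 in WT livers (SD, n = 5 each). Cd81, a tetraspanin that many cell types carry, and Fcgr2b, an inhibitory Fc receptor that liver endothelium also carries, had the highest levels in this list, with differences of 0.11 (SE 0.19) and 0.058 (SE 0.13).

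Plasma cells, the antibody-secreting end of the lineage, were read by 11 genes, of which 2 were higher and 9 lower in NML-KO livers, with a median log2 difference of -0.036 and 0 past an unadjusted p of 0.05. That median was -0.079 within the first array set and 0.023 within the second. Jchain, which joins antibody chains into polymers, lay within the dim range on all arrays, from 4.53 to 4.68 in NML-KO livers and from 4.54 to 4.78 in WT livers. Mzb1, a chaperone of antibody assembly, had the smallest p of the list, at 6.15 ± 0.15 in NML-KO livers and 6.29 ± 0.22 in WT livers (SD, n = 5 each). Xbp1 and Sdc1 had the highest levels, and hepatocytes are known to express both genes.

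Other cell types were read the same way. The median log2 difference was -0.023 over 17 T cell markers, -0.0043 over 13 NK cell markers, -0.12 over 14 pan-leukocyte genes, -0.082 over 14 Kupffer cell and macrophage markers, 0.026 over 11 neutrophil and marrow markers, -0.010 over 10 dendritic cell markers and 0.019 over the 9 hepatocyte markers. Of all these genes, Flt3 of the dendritic list alone had an unadjusted p below 0.05 (0.0239 by limma, adjusted p 0.9995), with a higher mean in NML-KO livers. The medians of several lists changed sign between the array sets. The macrophage median was -0.14 within the first and 0.18 within the second, the pan-leukocyte median -0.26 and 0.14, and the NK cell median -0.14 and 0.093. The T cell median was 0.020 and -0.0015, the neutrophil median -0.037 and 0.032, the dendritic median -0.075 and 0.023, and the hepatocyte median -0.011 and -0.0096. With 1 array left out, the macrophage median ran from -0.29 to 0.065, turning positive without NML-KO 1 or NML-KO 2. The B cell markers' median was -0.090 within the first array set and -0.042 within the second, and whether it differs from those of the other lists was not tested.

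**Figure D4:**
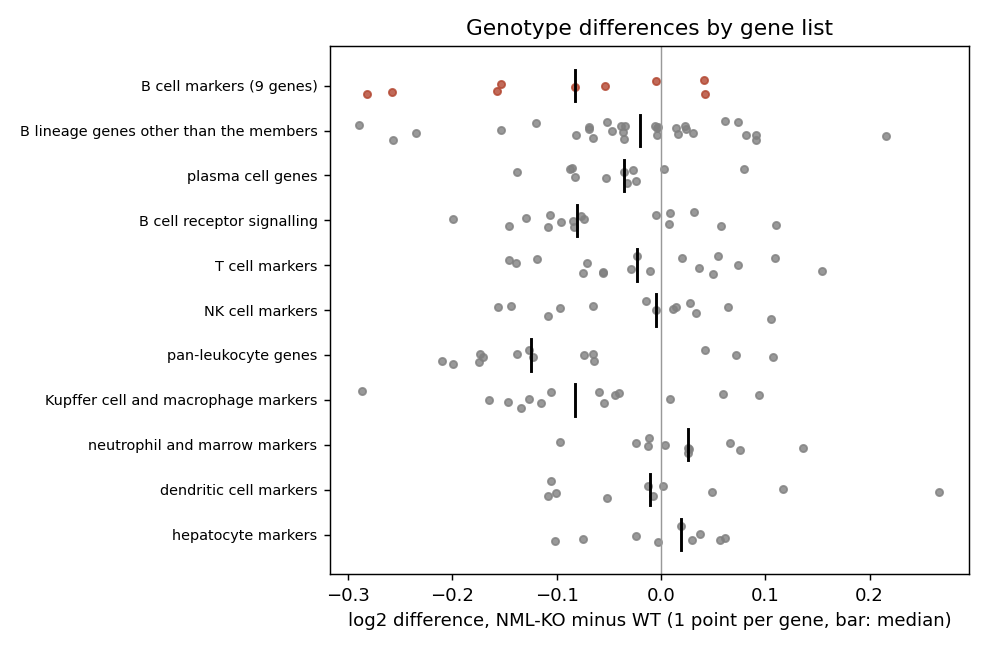
Log2 difference NML-KO minus WT (horizontal axis) of each gene, by gene list (vertical axis), with the 9 B cell markers in colour and black bars for list medians. The B cell marker median is -0.083, and every list has genes on both sides of 0. The macrophage median of -0.082 and the pan-leukocyte median of -0.12 were above 0 within the second array set.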

How the data were processed

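Biotin-labelled RNA from 10 livers was read on Affymetrix whole-transcript arrays, per the labels' protocols. The authors deposited intensity values on a linear scale for 28815 probe sets; the submitters' processing notes name build mm8, and the sources used here do not state how the arrays were background-corrected, normalized or summarized. Probe sets with 1 gene symbol in the platform table (21780; 1605 had several and 5430 none) were named, 21689 of them updated through a RefSeq table (GRCm38.p6), and the probe set with the highest mean stood for a gene, leaving 19935 genes. Groups and replicate numbers came from the sample titles.

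Log2 values were compared by limma 3.58.1 (R 4.3.3) without a filter, Benjamini-Hochberg over all genes, threshold 0.05. The fit was also run on simulated data with independent errors and no array sets, so that run cannot show how the array sets affect it. Single genes were also tested by exact permutation, and correlations by 100000 permutations (SciPy 1.17.1). The array sets come from a principal component analysis after each genotype's mean was removed from every gene (the side of zero on the leading component), and are not labels of the study. The number of arrays limits precision, and read depth does not apply.

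The 9 genes, the 10 further gene lists and the rule for named genes (all 9 genes, the 2 smallest p and the 2 highest means of each list, Rrp8, Dbp and the 6 genes of most similar pattern, 1 of which is not reported here) were chosen with earlier results of these data known. Genes named beyond that rule (Ptprc and Jchain) were chosen after their values were seen. Alternatives tried were quantile normalization, median centring, an offset of 16 before log2, the mean of all probe sets, leaving out dim genes, a trended and robust prior, array weights, the replicate number as a block, the array set as a term, each array left out, other dim ranges and, added after seeing the data, each array set alone.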

Additional observations from a re-analysis of the deposited data

Results flagged for a closer look

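Of 38 groups of 5 livers checked for a liver far from the rest (the 9 genes and the mean levels of the 10 gene lists, in each genotype), 5 were flagged, and chance flags about 1 group in 20. Cd79b in NML-KO 2 was 5.83, the lowest of its group, with a gap to the next liver of 0.722 of the group's range against a critical value of 0.71. Pax5 in the same liver was 5.93, the highest of its group, with a gap of 0.885 of the range. Cd22 in NML-KO 4 was 6.16, the highest of its group, with a gap of 0.80 of the range. The mean level of the other B lineage genes was 5.76 in WT 1, the lowest of its group (gap 0.777 of the range), and that of NK cell markers was 5.42 in NML-KO 4, the highest of its group (gap 0.817).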

How the results depend on the processing

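Across all alternatives the smallest adjusted p of any of the 9 genes was 0.875. Over all genes, 0 passed an adjusted p of 0.05 in each alternative, except 1, Rrp8, without NML-KO 4; leaving out 1 array at a time gave 0 to 1 such genes and 358 to 994 with an unadjusted p below 0.05. That unadjusted count was 309 with dim genes left out, where fewer genes were tested, 913 with array weights, 870 with the array set as a term, 1128 within the first array set and 943 within the second. Of the 9 genes, 0 to 2 had an unadjusted p below 0.05 with 1 array left out, 2 with array weights, 0 with dim genes left out and 0 within the first array set. With dim genes left out, 5 of the 9 genes remained in the test, 4 of them lower. With the replicate number as a block (replicate block), 0 of the 9 genes and 834 of all genes had an unadjusted p below 0.05. Same-numbered livers correlated from -0.416 to 0.537 in their deviations from group means, above 0.1 in 4 of 5 pairs. The pair at -0.416, NML-KO 3 with WT 3, alone was split between the array sets. Differently numbered livers of the same array set correlated from 0.136 (NML-KO 1 with WT 2) to 0.644 (NML-KO 5 with WT 4). Those of different array sets ran from -0.634 to -0.107. Whether the numbers pair the livers cannot be told from these values.

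Some signs turned. Within the first array set Cd79b was 0.021 and Cd22 -0.0086, and within the second Ms4a1 was -0.0046, Bank1 0.027 and Fcrla 0.0039. With 1 array left out, Ms4a1 ran from -0.0063 to 0.064, Cd22 from -0.044 to 0.075 and Fcrla from -0.063 to 0.060. Within the second set the medians were 0.18 for macrophage markers (-0.29 to 0.065 with 1 array left out), 0.14 for pan-leukocyte genes, 0.041 for receptor signalling, 0.023 for plasma cells and 0.093 for NK cells (-0.14 within the first). The hepatocyte median -0.011 within the first and -0.029 to 0.024 with 1 array left out. Against the 99th percentile of olfactory genes, 0 of the 9 genes lay above on all arrays and 6 on none; against the 95th percentile of vomeronasal genes, 6 and 2. Other causes of these shifts were not tested. Low signal over the dim range limits Cd79a, Ms4a1 and Cr2 most.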

Other observations

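Antibody genes gave a further reading of the B lineage that does not rest on the 9 genes. The platform table holds 29 probe sets whose every symbol is an immunoglobulin heavy, kappa or lambda gene, 14 of them with several symbols and so left out of the comparisons by gene. This set was drawn up after the data had been seen. Of the 29, 2 lay above the dim range on all arrays and 14 on none, against 61.3% and 27.5% of all genes. Their mean log2 level was 4.98, 5.04, 4.97, 5.24 and 5.07 in NML-KO 1 to 5, against 5.03, 5.16, 5.15, 5.07 and 5.06 in WT 1 to 5. NML-KO 4 was the highest liver, as it was for Cd22 and for the pan-leukocyte genes. The mean lay below the upper edge of the dim range on every array, NML-KO 4 included (5.24 against 5.33). Between genotypes 12 probe sets were higher and 17 lower in NML-KO livers, with a median difference of -0.0089.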
